A study of Mus musculus with 23 samples.

Results

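The genes of sterol and fatty acid synthesis were followed in the colonic epithelium of aged male C57BL/6 mice. The 39 members were chosen by symbol from the 24917 gene loci of the count table. They comprise 6 regulators of lipid synthesis, 8 enzymes of the mevalonate and isoprenoid pathway, 11 enzymes from squalene to cholesterol, 1 sterol carrier, 3 enzymes that supply acetyl-CoA or NADPH, 4 genes of fatty acid synthesis, 5 elongases and desaturases, and 1 acyltransferase at the entry to glycerolipids. There were 38 members listed under their own symbol, and Msmo1 was found by its Entrez identifier under the older symbol Sc4mol. After the filter on low counts 38 of 39 members were tested, and Thrsp was not.

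Mice entered the diets at 6 weeks of age and stayed on them for 43 weeks. LF mice ate a diet with 10% fat throughout, HF mice a diet with 60% fat throughout, and HFLF mice the 60% fat diet for 15 weeks followed by the 10% fat diet for 28 weeks. The epithelium of the whole colon was released with EDTA, so each sample pools all its segments. Total RNA depleted of ribosomal RNA was sequenced in 23 samples, in what the labels call batch 1 (4 LF, 3 HF and 4 HFLF) and batch 2 (4 LF, 3 HF and 5 HFLF). The methods name fewer mice per regimen than there are samples over the batches, and some samples may therefore come from the same animal. The p-values measure the spread between these samples.

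Cells make cholesterol and fatty acids from acetyl-CoA, and the enzymes of both routes share transcriptional regulators. The precursors SREBP-1 (from Srebf1) and SREBP-2 (from Srebf2) sit in the membrane of the endoplasmic reticulum bound to the escort protein SCAP, which carries them to the Golgi for cleavage when sterols are low, while the INSIG proteins hold the complex back when sterols are high. SREBP-2 acts mainly on cholesterol synthesis, SREBP-1c mainly on fatty acid synthesis, and ChREBP (from Mlxipl) drives lipogenic genes when carbohydrate is abundant.

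The libraries held between 29189922 and 65320947 counts on genes, the deepest being an HF sample of batch 2. The 12 colon epithelium markers were abundant in every sample, between 26129 and 41863 summed CPM (a gene's count relative to the library size, scaled by the trimmed mean method within a batch). In batch 2 the sum lay between 29673 and 33551 in HF against 33911 and 41863 in LF. The sum is weighted to Muc2, at 8640 to 26300 CPM over all samples. Of the 12 markers, 7 were higher and 5 lower in HF in batch 2 (median log2 fold change 0.064). Of the 10 adipocyte markers, the defining genes Adipoq, Plin1, Lep and Retn reached at most 0.214 CPM in any sample, while Cidec (3.54 to 17.1 CPM) and Lpl (6.31 to 24.0) were found in every sample. The summed adipocyte list in batch 2 reached 18.8 CPM in LF and stood at 16.4 to 18.9 in HF and 11.2 to 15.4 in HFLF. HF and HFLF did not overlap (exact two-sided permutation p = 0.0357, adjusted p = 0.472). Of the 4 adipocyte markers tested singly there, 3 were lower and 1 higher in HFLF than in HF. Against LF, 3 were higher in HF and 1 lower (log2 fold change -1.46, edgeR adjusted p = 0.0388). The part of the adipocyte list in the results was not tested. The 4 endothelium markers summed to 6.65 to 13.9 CPM in HF and 14.4 to 17.6 in HFLF in batch 1. In batch 2 they summed to 12.1 to 13.9 and 14.9 to 17.1. The same permutation test gave p = 0.0571 and 0.0357 (adjusted p = 0.472 for each), and the part of these markers was not tested. The 8 smooth muscle markers were low, between 0.563 and 53.7 summed CPM, but in batch 2 they did not overlap between HF (0.936 to 4.92) and LF (6.32 to 32.7), with 2.05 to 16.9 in HFLF. In that batch all 8 were lower in HF than in LF, and so were all 6 fibroblast markers. The exact two-sided permutation test of the summed muscle level gave p = 0.0571, which is the smallest value that 3 against 4 samples allow, and an adjusted p of 0.472 over 54 tests of 9 marker lists. A sample is a mixture of cells, so fewer cells of a type and less RNA per cell cannot be told apart.

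The promoters of Srebf1, Srebf2, Mlxipl, Fasn and Gpam are shown because these genes fell on the HF diet in at least 1 fit below, and that of Hmgcs1 because it holds every class of site bar the E-box and belongs to the enzymes that were not called. Each run gives the 250 bases before a RefSeq start on GRCm38.p6, 5′ to 3′ on the strand of the gene, in lower case with matches to the searched motifs in capitals. The motifs, on either strand, were TCACNCCAC (a sterol response element, bound by SREBP), CACGTG (an E-box, also the core bound by ChREBP) and CCAAT (the box bound by NF-Y, a partner of SREBP), and adjoining matches run together.
Srebf1, chr11:60220628-60220877, minus strand: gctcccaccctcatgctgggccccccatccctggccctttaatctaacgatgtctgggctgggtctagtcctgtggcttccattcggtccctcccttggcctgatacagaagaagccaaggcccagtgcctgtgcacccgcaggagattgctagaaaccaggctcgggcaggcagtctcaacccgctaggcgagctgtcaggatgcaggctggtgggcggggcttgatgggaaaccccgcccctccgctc
Srebf2, chr15:82147019-82147268, plus strand: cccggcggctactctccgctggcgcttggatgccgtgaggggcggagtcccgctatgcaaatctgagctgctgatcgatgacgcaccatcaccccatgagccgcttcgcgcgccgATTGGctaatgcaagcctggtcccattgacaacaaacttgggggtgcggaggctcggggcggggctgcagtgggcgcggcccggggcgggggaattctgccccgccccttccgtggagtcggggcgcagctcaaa
Mlxipl, chr5:135106641-135106890, plus strand: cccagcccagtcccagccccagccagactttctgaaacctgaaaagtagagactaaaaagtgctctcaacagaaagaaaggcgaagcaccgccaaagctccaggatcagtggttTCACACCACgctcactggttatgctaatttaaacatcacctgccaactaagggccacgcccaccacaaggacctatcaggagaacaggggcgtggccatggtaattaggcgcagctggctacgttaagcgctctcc
Fasn, chr11:120824548-120824797, minus strand: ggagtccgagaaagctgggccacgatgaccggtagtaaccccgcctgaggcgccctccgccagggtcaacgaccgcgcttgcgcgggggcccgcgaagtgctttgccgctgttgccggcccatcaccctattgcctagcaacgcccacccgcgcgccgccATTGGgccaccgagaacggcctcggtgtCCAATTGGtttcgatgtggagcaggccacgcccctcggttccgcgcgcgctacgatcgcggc
Gpam, chr19:55099478-55099727, minus strand: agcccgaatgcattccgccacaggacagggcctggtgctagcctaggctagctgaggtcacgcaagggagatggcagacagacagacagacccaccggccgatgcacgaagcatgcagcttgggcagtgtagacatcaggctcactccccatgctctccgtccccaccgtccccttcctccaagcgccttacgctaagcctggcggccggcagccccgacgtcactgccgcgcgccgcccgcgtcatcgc
Hmgcs1, chr13:119690101-119690350, plus strand: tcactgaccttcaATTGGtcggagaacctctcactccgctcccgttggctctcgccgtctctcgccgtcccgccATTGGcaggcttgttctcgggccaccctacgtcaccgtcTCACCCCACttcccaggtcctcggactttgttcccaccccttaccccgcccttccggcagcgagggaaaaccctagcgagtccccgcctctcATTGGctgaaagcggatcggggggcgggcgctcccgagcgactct
The Srebf1 window, before the start that lies closest to the counted locus, held none of the 3 motifs, while its other RefSeq starts, not shown, each held a CCAAT box. The Gpam window shown held none either, and its other start held a CCAAT box. Srebf2 held 1 CCAAT box, Fasn 3, Hmgcs1 3 with 1 sterol response element, and this start of Mlxipl 1 sterol response element. The other start of Mlxipl, not shown, held 1 E-box and 1 CCAAT box. RefSeq windows were found for 34 of 39 members, with 46 starts in all. Of these 34 genes, 28 held a CCAAT box at 1 start or more (37.5% of all 27025 genes with a window), 7 held CACGTG (6.86%) and 2, Hmgcs1 and Mlxipl, held TCACNCCAC (1.22%). A match is a description of the letters in this window.

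Lipid synthesis genes differed widely in level. Per kilobase of exon in LF samples, Acly, which cleaves citrate to acetyl-CoA, was the most abundant with 113 CPM per kb in batch 2. Hmgcs1 (56.1 and 73.1 CPM per kb), Fasn (52.7 and 60.0) and Fads2 (51.2 and 62.3) followed. Srebf1 (28.8 and 35.1) lay near Srebf2 (31.6 in batch 1), and Mlxipl was lower (7.23 and 6.74). At the bottom lay Me1, the NADPH-producing malic enzyme, with 1.07 and 0.759 CPM per kb, and Thrsp, a lipogenic protein of liver and fat, which had 0 counts in 16 of 23 samples and at most 15 counts in any.

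The first comparison asks how these genes differ between mice kept on the high-fat diet for all 43 weeks and mice kept on the low-fat diet. Transcripts of the 3 transcription factors of sterol and fatty acid synthesis fell on the HF diet in batch 2: Srebf1 to 0.721 of its LF level, Srebf2 to 0.737 and Mlxipl to 0.762. Gpam, the mitochondrial acyltransferase that commits fatty acids to glycerolipids, fell to 0.790. No member rose. These 4 members, all lower, were called among 38 (adjusted p under 0.05 and a fold above 1.2), against 7.44% of 14377 genes called in either direction and 4.4% called lower. In batch 1 no member passed the test and 0% of 14428 genes did.

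Srebf1 stood at 191, 199, 200 and 202 CPM in the 4 LF samples of batch 2 and at 135, 149 and 144 CPM in the 3 HF samples. In batch 1 the LF samples held 144, 170, 191 and 143 CPM and the HF samples 118, 139 and 126. Every HF sample thus lay below every LF sample in both batches, although the gap in batch 1 was narrow. The log2 fold change was -0.47 ± 0.10 (SE, adjusted p = 0.0242) in batch 2, -0.34 ± 0.12 (adjusted p = 0.166) in batch 1, and -0.41 ± 0.08 (adjusted p = 0.00263) over both batches with batch as a covariate. Srebf1 was the only member lower without overlap in both batches, as were 2.5% of 14180 genes tested in each. The counts are of whole loci, so the 1a and 1c transcripts were not separated.

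Srebf2 stood at 262, 230, 282 and 230 CPM in LF and at 198, 175 and 183 CPM in HF samples of batch 2, with no overlap. In batch 1 it stood at 189, 247, 265 and 206 CPM in LF and at 195, 211 and 213 in HF, and the groups overlapped. The log2 fold change was -0.44 ± 0.10 (adjusted p = 0.0272) in batch 2, -0.14 ± 0.12 (adjusted p = 0.480) in batch 1 and -0.28 ± 0.08 (adjusted p = 0.0129) over both.

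Mlxipl stood at 44.6, 34.2, 38.2 and 32.4 CPM in LF and at 30.2, 24.6 and 30.4 CPM in HF samples of batch 2. In batch 1 the LF samples held 32.6, 42.3, 48.0 and 37.4 CPM and the HF samples 27.4, 37.3 and 29.9, which overlap by 1 HF sample. Its log2 fold change was -0.39 ± 0.11 (adjusted p = 0.0428) in batch 2, -0.35 ± 0.21 (adjusted p = 0.319) in batch 1 and -0.37 ± 0.12 (adjusted p = 0.0299) over both. The other regulators were not called. Scap, the escort, had log2 fold changes of -0.10 ± 0.09 and -0.13 ± 0.06 in batches 1 and 2, and Insig2 of 0.15 ± 0.10 and 0.10 ± 0.06.

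Insig1, a sterol-regulated target of SREBP as well as its retention factor, stood at 142, 149, 148 and 183 CPM in LF and at 114, 142 and 102 CPM in HF samples of batch 2. In batch 1 it stood at 125, 115, 110 and 87.8 CPM in LF and at 107, 98.6 and 139 in HF. The groups overlapped in batch 1 and touched in batch 2, and the log2 fold changes of 0.07 ± 0.16 and -0.38 ± 0.20 were not called (adjusted p = 0.812 and 0.183).

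**Figure D1:**
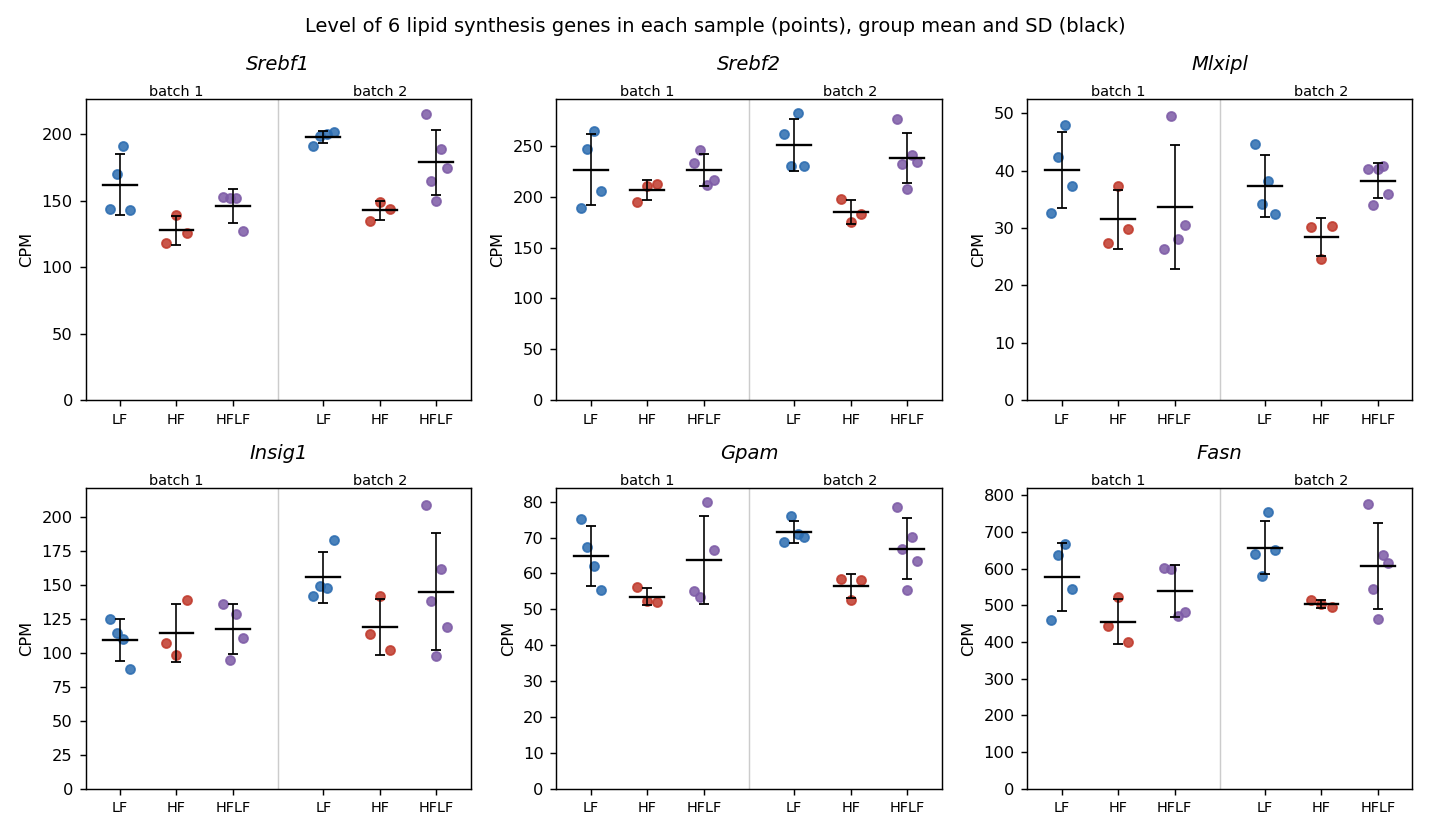
Levels in CPM (vertical axes, from 0) of 6 members in each sample (points) by diet and batch, with the group mean and SD in black. Srebf1 in HF samples (118 to 139 CPM in batch 1, 135 to 149 in batch 2) lies below every LF sample of its batch (143 to 191 and 191 to 202), while HFLF samples spread between and across the other groups.

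Of the 7 tested genes of fatty acid synthesis and supply (Fasn, Acaca, Acacb, Acly, Acss2, Me1 and Gpam), 5 had lower values in HF than in LF in batch 1 and 6 in batch 2. Fasn, the fatty acid synthase, stood at 640, 581, 755 and 650 CPM in LF and at 515, 503 and 494 CPM in HF samples of batch 2, and at 460, 637, 666 and 544 against 444, 523 and 400 CPM in batch 1. The groups did not overlap in batch 2 and did in batch 1. Its log2 fold changes of -0.34 ± 0.15 (adjusted p = 0.208) and -0.38 ± 0.14 (adjusted p = 0.0779) were not called within a batch, and the fit over both batches gave -0.36 ± 0.10 (adjusted p = 0.0141), which was. Gpam stood at 68.9, 75.9, 71.0 and 70.2 CPM in LF and at 58.5, 52.6 and 58.2 CPM in HF samples of batch 2, and at 75.1, 67.3, 62.1 and 55.4 against 56.2, 52.4 and 52.0 CPM in batch 1. The batch 2 groups were well apart and those of batch 1 overlapped by 1 sample of each. The log2 fold change of Gpam was -0.34 ± 0.09 (adjusted p = 0.0403), -0.28 ± 0.14 (adjusted p = 0.250) and -0.31 ± 0.09 (adjusted p = 0.0125) in batch 2, batch 1 and both.

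Over both batches edgeR called 5 members lower, Srebf1, Srebf2, Mlxipl, Fasn and Gpam, and none higher, where 18.1% of 14385 genes were called and 9.11% were called lower. DESeq2 called the same 5 lower and Msmo1 higher, where it called 19.2% of all genes. With the replicate block edgeR called the same 5 and Fads2 lower and Elovl6 and Me1 higher, where 19.8% of all genes were called. Acaca, the acetyl-CoA carboxylase of the cytosol, had log2 fold changes of -0.07 ± 0.09 in batch 1 and -0.32 ± 0.11 in batch 2 (adjusted p = 0.0703), where its HF samples (95.2 to 96.3 CPM) lay below all LF samples (112 to 126). Acacb, the mitochondrial form, Acly and Acss2 lay between -0.11 and 0.08 in either batch. Me1 had the highest values of any member, 0.69 ± 0.40 in batch 1 and 0.58 ± 0.29 in batch 2 on the log2 scale. It stood at only 2.08 to 8.02 CPM in LF and HF samples and was not called within a batch. Among the elongases, Elovl1 (0.12 ± 0.11 and 0.21 ± 0.06) and Elovl6 (0.32 ± 0.14 and 0.18 ± 0.08) were higher in HF in each batch. Elovl1 passed the adjusted threshold in batch 2 (adjusted p = 0.0499) and both passed it over the batches (adjusted p = 0.0491 and 0.0282), with folds below 1.2. Elovl5 was near 0 in batch 2 (-0.01 ± 0.09), and the desaturases Fads1 (0.26 ± 0.17 and -0.35 ± 0.15) and Fads2 (-0.45 ± 0.21 and -0.13 ± 0.08) were not called within a batch.

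None of the 19 enzymes, from Acat2 (the thiolase that joins acetyl-CoA units) to Dhcr7 (the last reductase of the pathway), was called by edgeR in either batch, while in batch 1 DESeq2 called Acat2 and limma with sample weights Acat2, Fdps, Nsdhl and Tm7sf2. In batch 1, 18 of 19 had a positive HF against LF value with a median log2 fold change of 0.32, against -0.004 for all genes. In batch 2, 8 were positive and 11 negative with a median of -0.03, against -0.01 for all genes. The values in batch 1 were highest for Msmo1 (0.63 ± 0.25), Cyp51 (0.53 ± 0.19), Acat2 (0.46 ± 0.12) and Fdft1 (0.43 ± 0.24), the first pair being sterol demethylation enzymes and Fdft1 the squalene synthase. Those same genes gave 0.17 ± 0.17, -0.01 ± 0.17, 0.01 ± 0.17 and -0.07 ± 0.17 in batch 2.

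The size of the batch 1 values depended on 1 library. Msmo1, described in full after its values were seen, stood at 128, 121, 113 and 104 CPM in LF and at 154, 126 and 259 CPM in HF samples of batch 1. The third HF sample held the highest level in the batch for 10 of the 19 enzymes, and it was also the sample with the least smooth muscle signal (0.563 summed CPM). Without it, 19 of 19 enzymes were positive but their median log2 fold change was 0.13 rather than 0.32, with Msmo1 at 0.27 ± 0.22 and Cyp51 at 0.28 ± 0.17. Acat2 depended less on it: 24.9, 20.8, 21.3 and 20.3 CPM in LF against 29.9, 26.3 and 33.6 CPM in HF, with 0.37 ± 0.13 without that sample. In batch 2, Acat2 stood at 27.7, 30.1, 33.5 and 40.6 CPM in LF and at 29.4, 38.7 and 31.5 in HF, so the HF range lay inside the LF range. Leaving out the LF sample 4 of batch 2, which was highest for 11 enzymes, moved the batch 2 median from -0.03 to 0.11.

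The 19 enzymes also varied together between samples of 1 diet. Averaged over the enzymes as log2 differences from the LF mean of the batch, LF samples of batch 2 ranged from -0.22 to 0.25, HF from -0.12 to 0.15 and HFLF from -0.46 to 0.06. The median SD within groups was 0.26 on the log2 scale in batch 2 for these enzymes and 0.14 for the other 19 members tested, against 0.13 for all genes. In batch 1 it was 0.21 and 0.16, against 0.18 for all genes. HFLF sample 3 of batch 2 was the lowest of its batch for 15 of 19 enzymes, with Cyp51 at 97.9 CPM against 152 to 161 in the other HFLF samples. The 6 regulators, averaged the same way, lay between -0.30 and -0.27 in HF between -0.04 and 0.03 in LF and between -0.19 and 0.15 in HFLF samples of batch 2. In batch 1 they overlapped, with -0.23 to -0.03 in HF, -0.12 to 0.15 in LF and -0.08 to 0.04 in HFLF. Stard4, a carrier that moves sterol between membranes, stood at 201, 202, 205 and 198 CPM in LF against 161, 157 and 159 CPM in HF samples of batch 2, and its log2 fold change of -0.34 ± 0.11 was not called (adjusted p = 0.0674).

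**Figure D2:**
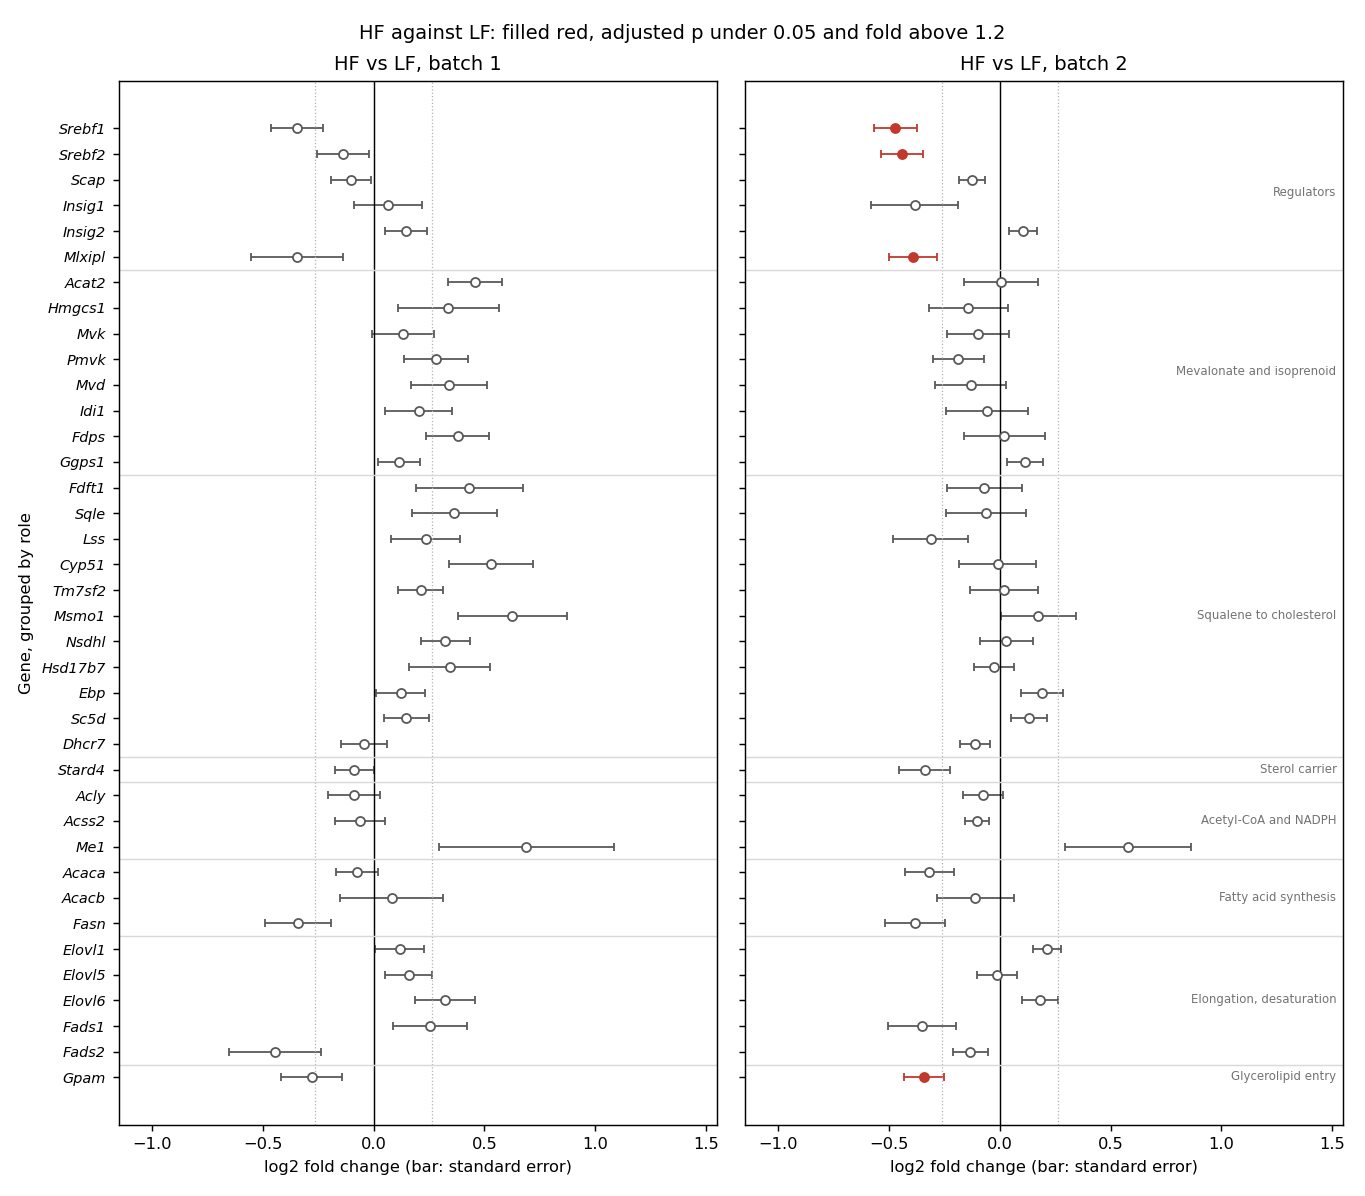
The log2 fold change of HF against LF (horizontal axes) for the 38 tested members in batch 1 (left) and batch 2 (right), with standard errors, grouped by role; filled red points passed the test and dotted lines mark a fold of 1.2. Srebf1 (-0.34 and -0.47) lies left of 0 in both panels, while the enzymes from Acat2 to Dhcr7 lie mostly right of 0 in batch 1 (median 0.32) and around it in batch 2 (median -0.03).

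**Figure D3:**
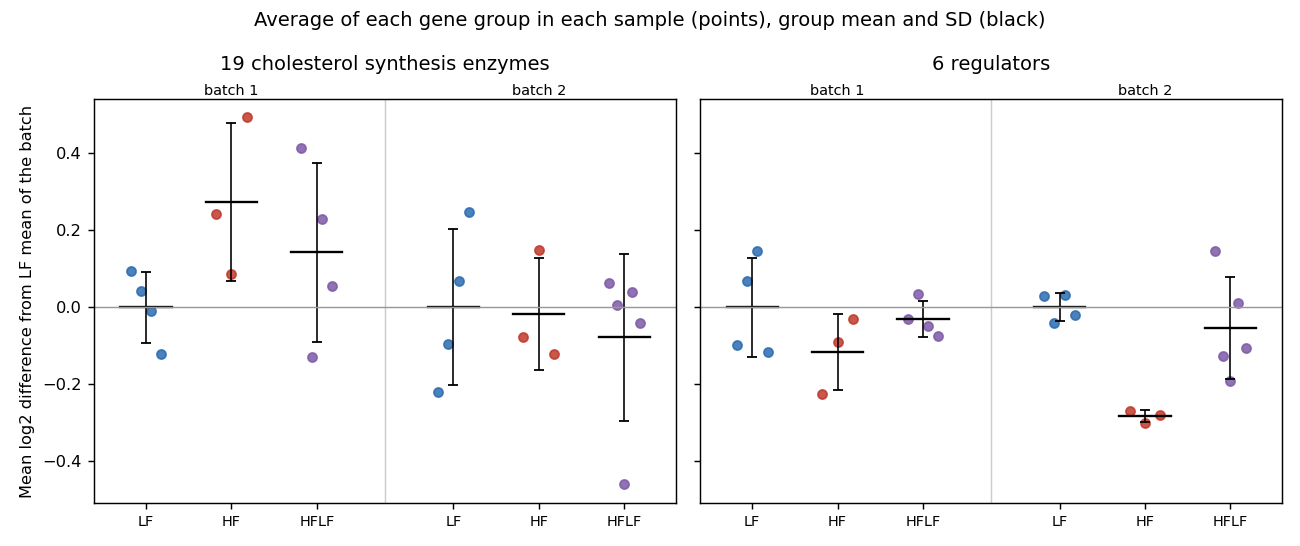
Mean log2 difference from the LF mean of the same batch (vertical axis) over 19 cholesterol synthesis enzymes (left) and 6 regulators (right) in each sample (points), with group mean and SD in black. The 3 HF samples of batch 2 lie between -0.30 and -0.27 for the regulators and between -0.12 and 0.15 for the enzymes, and those of batch 1 between -0.23 and -0.03 (LF -0.12 to 0.15) and between 0.09 and 0.49.

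Counting members whose HF and LF samples did not overlap gave 4 higher (Acat2, Mvd, Nsdhl and Me1) and 1 lower (Srebf1) of 38 in batch 1, where 6.29% and 7.33% of all genes were higher and lower without overlap. In batch 2 it gave 3 higher (Ggps1, Elovl1 and Elovl6) and 9 lower (Srebf1, Srebf2, Mlxipl, Lss, Stard4, Acss2, Acaca, Fasn and Gpam), against 13.8% and 13.5% of all genes. At an unadjusted p under 0.05 in batch 1 there were 8 of 38 members, 6 higher and 2 lower, against 22.2% of all genes, a share of members (21.1%) close to that background. Other tools called more in that batch: DESeq2 called Acat2 higher (3.55% of all genes), and limma with sample weights called Acat2, Elovl6, Fdps, Nsdhl and Tm7sf2 higher and Srebf1 lower (16.8%). In batch 2 DESeq2 and limma each called the 4 members above and also Acaca, Fasn and Stard4, all lower, where they called 12.8% and 13.8% of all genes.

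The batches were compared by the batch by diet interaction. No member and no gene had an adjusted p under 0.05 by edgeR, and the lowest adjusted p of a member was 0.719 for HF against LF. At an unadjusted p under 0.05 there were 4 of 38 members (Fads1, Lss, Pmvk and Srebf2), against 6.56% of all genes. For HFLF against LF there were 3 (Fads1, Nsdhl and Tm7sf2, against 7.58%) and for HFLF against HF 0 (against 7.68%). The difference between batches for the cholesterol enzymes was therefore not established, and neither was likeness: for Msmo1 it was -0.46 ± 0.33 and for Cyp51 -0.54 ± 0.28 on the log2 scale.

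The calls in batch 2 were sensitive to the libraries. Leaving out LF sample 1, LF sample 3, HF sample 2 or HF sample 3 of batch 2 left 0 members called, and also reduced the calls over all genes from 1069 to 49, 41, 15 and 49. Without LF sample 2, HF sample 1 or HFLF sample 5, Srebf1 and Srebf2 were called and Mlxipl and Gpam were not, and without HFLF sample 3 Mlxipl was lost. Calls over all genes in these fits were 336, 802, 688 and 918. Mlxipl was called in 4 of the 12 fits, Gpam in 5, and Srebf1 and Srebf2 in 8 each. The log2 fold change of Srebf1 stayed between -0.49 and -0.43 over the 12 fits that leave out a sample (highest adjusted p 0.101), that of Srebf2 between -0.49 and -0.38 (0.154), that of Mlxipl between -0.46 and -0.29 (0.223) and that of Gpam between -0.37 and -0.29 (0.210). Over both batches Srebf1, Fasn and Gpam were called in all 23 such fits and Srebf2 and Mlxipl in 17 each. Srebf2 was lost without LF samples 2 or 3 of batch 1, LF samples 1 or 3 of batch 2 or HF samples 2 or 3 of batch 2, and its value ran from -0.33 to -0.23 over the fits. Mlxipl was lost without LF samples 2 or 3 or HF samples 1 or 3 of batch 1, or LF sample 1 or HF sample 2 of batch 2, with values between -0.44 and -0.30.

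Smooth muscle signal moved with the batch 2 differences. In a fit chosen after that was seen, with the muscle level of each sample as a covariate, no member was called for HF against LF in batch 2, where 3 genes in all were called. Srebf1 then had a log2 fold change of -0.34 ± 0.11 (adjusted p = 0.400), Srebf2 of -0.21 ± 0.07 (0.435), Mlxipl of -0.18 ± 0.11 (0.677) and Gpam of -0.20 ± 0.10 (0.624). Since the muscle level does not overlap between HF and LF in that batch, the covariate and the diet cannot be told apart there. In batch 1, muscle levels in HF (0.563 to 10.9) and LF (1.47 to 12.1) overlapped. Srebf1 was not called there, at 118 to 139 CPM in HF and 143 to 191 CPM in LF. Over both batches Srebf1 and Gpam were the 2 of 38 members called with the covariate, where 7.84% of all genes were called. Srebf1 stood at -0.37 ± 0.08. That fit includes the samples of batch 2, and the part of the muscle signal in these differences was not tested.

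**Figure D4:**
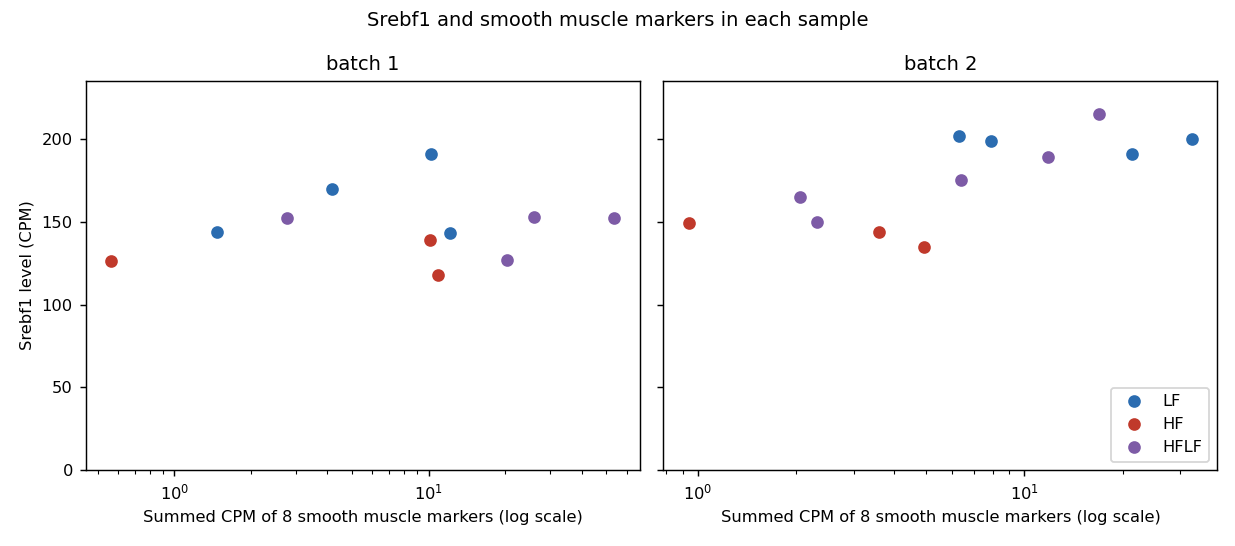
Srebf1 level in CPM (vertical axis, from 0) against the summed CPM of 8 smooth muscle markers (horizontal axis, log scale) in each sample, batch 1 left and batch 2 right. In batch 2 the HF samples have the lowest Srebf1 (135 to 149 CPM) and muscle sums of 0.936 to 4.92, and in batch 1 HF samples have 118 to 139 CPM at muscle sums of 0.563 to 10.9, LF samples 143 to 191 CPM at 1.47 to 12.1.

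The second comparison asks whether the genes differ between mice that stayed on the HF diet and mice that had been switched to the LF diet. In batch 2 Mlxipl, Srebf2 and Srebf1 rose in HFLF relative to HF, by log2 fold changes of 0.43 ± 0.10 (adjusted p = 0.0199), 0.36 ± 0.09 (adjusted p = 0.0213) and 0.33 ± 0.09 (adjusted p = 0.0290). These 3 of 38 members, all higher, compare with 14.5% of all genes called in either direction and 8.89% called higher. No member fell. Mlxipl stood at 40.3, 34.0, 40.2, 40.8 and 36.0 CPM in the HFLF samples, Srebf2 at 276, 232, 208, 241 and 234 CPM and Srebf1 at 215, 165, 150, 189 and 175 CPM. All lay above the HF samples of the batch, the closest being 150 CPM of Srebf1 against 149. These comparisons share their HF samples with those against LF.

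The members that were not called for HFLF against HF in batch 2 ran in both directions. Higher values were found for Stard4 (0.30 ± 0.11, adjusted p = 0.0623), Insig1 (0.28 ± 0.19), Lss (0.27 ± 0.16), Fasn (0.27 ± 0.13), Acaca (0.25 ± 0.10) and Gpam (0.24 ± 0.09, adjusted p = 0.0620). Lower values were found for Me1 (-0.44 ± 0.27), Ebp (-0.26 ± 0.09, adjusted p = 0.0595), a sterol isomerase, and Msmo1 (-0.24 ± 0.16). Elovl1 passed the adjusted threshold (adjusted p = 0.0399) at -0.19 ± 0.06, below the fold threshold. The median of the 19 cholesterol enzymes was -0.04, with 7 positive and 12 negative. Groups did not overlap for 3 higher members (Srebf1, Srebf2 and Mlxipl, against 14.6% of all genes) and 2 lower (Ebp and Elovl1, against 12.4%). DESeq2 added Stard4 higher and Ebp lower to the calls (17.1% of all genes) and limma added Stard4 (15.7%).

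In batch 1 no member was called for HFLF against HF, nor was any at an unadjusted p under 0.05, where 10.9% of genes passed the latter, and 0.00693% were called by edgeR, 0.118% by DESeq2 and 0.0208% by limma. Srebf1 had a log2 fold change of 0.19 ± 0.12, Srebf2 of 0.14 ± 0.12 and Mlxipl of 0.10 ± 0.21 there. In that batch the HFLF samples held 153, 152, 152 and 127 CPM of Srebf1, 233, 246, 212 and 216 CPM of Srebf2 and 26.3, 49.6, 28.1 and 30.6 CPM of Mlxipl, all 3 overlapping with HF. Over both batches Srebf1 alone was called, at 0.26 ± 0.07 (adjusted p = 0.0220), where 10.3% of genes were. Its value sat at the fold threshold, and the call was lost in 18 of 23 fits that leave out a sample, with values from 0.21 to 0.30. Srebf2 (0.25 ± 0.08, adjusted p = 0.0320) and Gpam (0.25 ± 0.08, adjusted p = 0.0420) passed the adjusted threshold only.

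The calls of batch 2 again depended on single libraries. Without HF sample 2 no member was called and 11 genes in all were. Without HF sample 3 only Mlxipl of the members was, and 684 genes in all. Without HFLF sample 3, the sample low in cholesterol enzymes, 8 of 38 members were called, where 14.8% of all genes were. They were Srebf1, Srebf2, Mlxipl, Stard4, Acaca, Fasn, Gpam and Lss, all higher in HFLF. Without HFLF sample 1, HFLF sample 4 or HF sample 1, Srebf1 was lost and Srebf2 and Mlxipl were called. All-gene shares were 6.13%, 6.66% and 13.1%. Over these fits the log2 fold change ran from 0.25 to 0.37 for Srebf1, from 0.31 to 0.41 for Srebf2 and from 0.32 to 0.48 for Mlxipl. With the smooth muscle level as a covariate only Mlxipl of the members was called, where 6.12% of all genes were. Srebf2 (0.25 ± 0.06, adjusted p = 0.0187) kept the adjusted threshold but not the fold, with Srebf1 at 0.25 ± 0.09 (adjusted p = 0.0734).

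**Figure D5:**
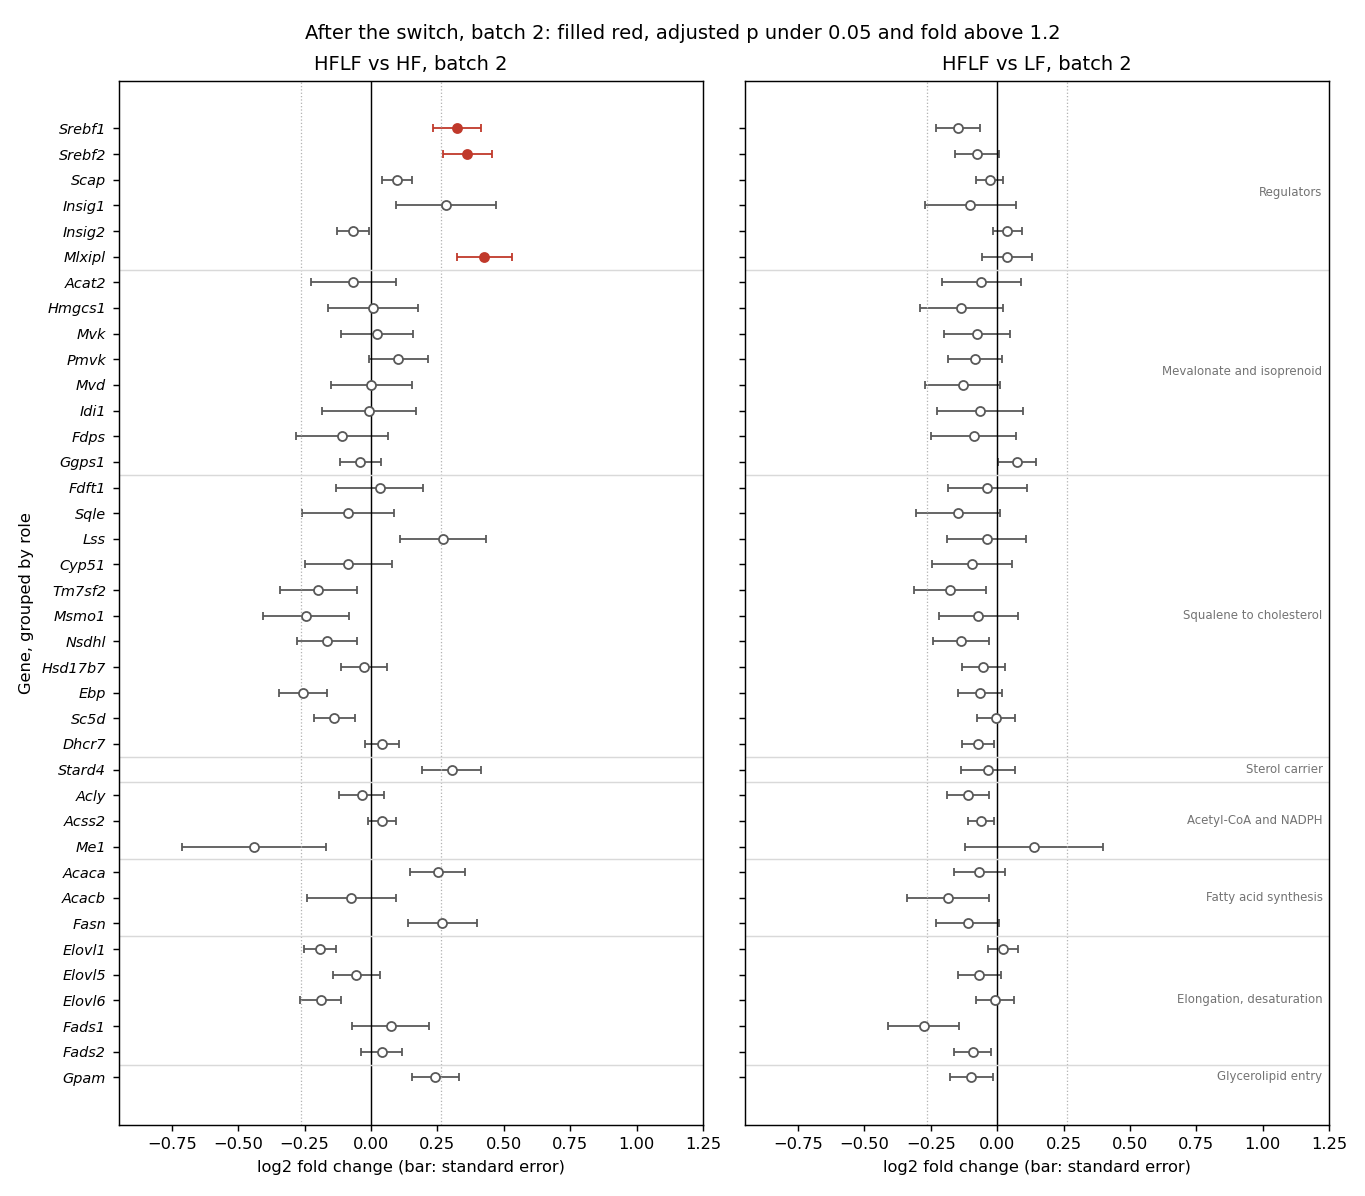
The log2 fold change (horizontal axes) of HFLF against HF (left) and against LF (right) in batch 2 for the 38 tested members, with standard errors, grouped by role; filled red points passed the test and dotted lines mark a fold of 1.2. Srebf1, Srebf2 and Mlxipl lie at 0.33 to 0.43 on the left and at -0.15 to 0.04 on the right.

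The third comparison asks whether differences from LF mice remained after the switch. No member was called for HFLF against LF in batch 1, batch 2 or both, where 0%, 0.00696% and 0% of all genes were called by edgeR. At an unadjusted p under 0.05 there were 6, 0 and 2 members, against 5.29%, 4.65% and 4.11% of all genes. DESeq2 and limma called no member either, with 0.0416% and 0% of genes called in batch 1, 0.111% and 0% in batch 2, and 0.0417% and 0.0209% over both. The intervals leave room for small differences: Srebf1 had log2 fold changes of -0.15 ± 0.11 and -0.15 ± 0.08 in batches 1 and 2, Srebf2 of 0.00 ± 0.11 and -0.08 ± 0.08, Mlxipl of -0.25 ± 0.19 and 0.04 ± 0.10, Fasn of -0.10 ± 0.14 and -0.11 ± 0.12, and Gpam of -0.03 ± 0.13 and -0.10 ± 0.08.

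The direction of the cholesterol enzymes against LF was opposite in the batches without any call. This was not particular to them. Of all 38 tested members 31 were higher in batch 1 and 33 lower in batch 2, where 50.3% and 52.1% of all genes were higher. Of the enzymes in batch 1, 18 of 19 were positive (median 0.17), led by Tm7sf2 (0.36 ± 0.10), a sterol reductase, and Fdps (0.30 ± 0.13), which makes farnesyl diphosphate. In batch 2, 18 of 19 were negative (median -0.07), and without HFLF sample 3 of that batch 9 were, with a median of 0.01. Without LF sample 4 of that batch 8 were negative, with a median of 0.02. Without HFLF sample 1 of batch 1, 14 were positive there with a median of 0.05. Muscle markers moved in the same batch: all 7 tested were higher in HFLF than in LF (median log2 fold change 1.97, 4 at an unadjusted p under 0.05), as were all 6 fibroblast markers. The summed muscle level overlapped, at 2.78 to 53.7 CPM in HFLF and 1.47 to 12.1 in LF. Its exact two-sided permutation test gave p = 0.171 (adjusted p = 0.472). With the muscle level as a covariate the median over the 38 members was 0.18 rather than 0.09, and 13 rather than 6 had an unadjusted p under 0.05, with 0 called. Me1 (1.07 ± 0.37) and Fads1 (0.53 ± 0.16) had the highest values in batch 1. Me1 stood at 12.4, 2.83, 7.86 and 11.6 CPM in HFLF against 5.16, 2.85, 5.42 and 3.04 CPM in LF, so HFLF sample 2 lay just below the lowest LF sample and the other HFLF samples above the highest. In batch 2, Me1 (0.14 ± 0.26) and Fads1 (-0.28 ± 0.13) had no such values.

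Of 60 other genes of sterol and lipid metabolism that are no members, 57 were tested. For HF against LF in batch 2, 3 of 57 rose and 2 fell, where 7.44% of all genes were called. Dgat2, which makes triglyceride, rose (0.62 ± 0.14, adjusted p = 0.0280) from 53.8 to 81.2 CPM in LF to 95.9 to 101 CPM in HF. Mgll, which cleaves monoglyceride, rose (0.52 ± 0.15, adjusted p = 0.0438) and so did the elongase Elovl7 (0.41 ± 0.07, adjusted p = 0.0142). Lpin1, the phosphatidate phosphatase, fell (-0.87 ± 0.24, adjusted p = 0.0428) from 16.1 to 21.0 CPM to 9.39 to 11.6 CPM, and Trib1, a pseudokinase, fell (-0.49 ± 0.09, adjusted p = 0.0186). Dgat2 and Mgll were thus higher in the HF samples in which Gpam was lower.

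After the switch, for HFLF against HF in batch 2, 3 of the 57 rose and 8 fell, where 14.5% of all genes were called. Lpin1 (0.87 ± 0.23) and Trib1 (0.42 ± 0.09) rose, and Dgat2 (-0.62 ± 0.13), Mgll (-0.74 ± 0.14), Elovl7 (-0.36 ± 0.07), the NADPH-producing Idh1 (-0.29 ± 0.08), the reductase Hsd17b12 (-0.30 ± 0.08) and Mcat (-0.28 ± 0.08), of mitochondrial fatty acid synthesis, fell, with adjusted p between 0.0118 and 0.0308. In batch 1 none of the 57 was called in any comparison. There, HF against LF gave 0.74 ± 0.21 for Mgll, 0.40 ± 0.12 for Elovl7 and -0.48 ± 0.13 for Trib1, but 0.18 ± 0.14 for Dgat2 and 0.04 ± 0.24 for Lpin1.

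The annotation bears on some counts. By GENCODE, exons of 15 members share bases with exons of another gene, the largest shares being 26.7% of Fdps with an overlapping gene on the same strand and 18.3% of Fdft1 with Ctsb on the opposite strand. For Srebf1 the share with Rai1 on the opposite strand was 1.93%. Whether strand was used in counting is not stated in the sources used here, so reads of such partners may be mixed.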

How the data were processed

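Gene counts were analysed as the authors deposited them: whole-number counts of reads per gene, not normalised. According to the submitters' processing notes and methods, stranded libraries depleted of ribosomal RNA were handled with cutadapt 1.2.1, STAR 2.5 and featureCounts 1.5.0-p1 on mm10. The strand setting and the treatment of multimapping reads are not given in the sources used here.

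Samples were grouped by diet and batch from their titles. Within batch 1, batch 2 and over both (batch as covariate), the 3 diets were fitted with edgeR 4.0.16 (R 4.3.3, quasi-likelihood F test, TMM, filterByExpr by diet), with Benjamini-Hochberg adjustment over all genes. A gene was called at an adjusted p under 0.05 and a fold above 1.2, and only such genes are said to rise or fall. The SE is the log2 fold change divided by the root of F. Batches were compared with a batch by diet interaction. In counts simulated for HF against LF over 14428 genes of batch 1 and 14377 of batch 2, 17% and 38% of genes changed 1.3-fold were called, and 79% and 83% of those changed 2-fold. The simulated spread followed the trend over all genes, and genes did not vary together between samples. These shares may therefore not carry over to the cholesterol enzymes, which varied more than all genes and did so together. DESeq2 1.42.0, limma 3.58.1 with sample weights, other normalisation, no filter, no fold threshold, the replicate number as a block and leaving out each sample were alternatives.

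The members, lists and tests were chosen with earlier results of these data known. Values in every sample were given by rule for Srebf1, Srebf2, Insig1, Mlxipl and members called in any comparison. Of the other pathway genes, at most 8 called within a batch were named, by adjusted p. Msmo1, Acat2, Stard4 and Me1 were shown, and other uncalled members named, after their values were seen.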

Additional observations from a re-analysis of the deposited data

Results flagged for a closer look

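Of 152 groups of 4 or 5 samples examined over the 38 tested members, 9 held a sample far from the others, meaning that its gap to the nearest sample took a larger share of the group's range than Dixon's 95% critical value. Chance gives about 1 in 20. LF sample 4 of batch 1 accounted for 3 of them: Hmgcs1 was 212 CPM against 271 to 278 in the other LF samples, Mvd was 23.9 CPM against 29.4 to 30.4, and Idi1, the isopentenyl diphosphate isomerase, was 30.4 CPM against 27.3 to 27.7. LF sample 4 of batch 2 was high for Pmvk, the phosphomevalonate kinase (41.7 CPM against 29.2 to 30.2), and for Idi1 (37.8 CPM against 24.8 to 26.2). Among HFLF samples, Idi1 was 39.9 CPM in sample 1 of batch 1 against 25.4 to 27.7, Srebf1 was 127 CPM in sample 4 of batch 1 against 152 to 153, Cyp51 was 97.9 CPM in sample 3 of batch 2 against 152 to 161, and Scap was 131 CPM in sample 5 of batch 2 against 123 to 124.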

How the results depend on the processing

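No member called by edgeR changed direction under any alternative. For HF against LF in batch 1 (0 members called), DESeq2 called 1 (3.55% of all genes) and limma 6 (16.8%). Leaving out a sample gave 0 to 3, the 3 being Acat2, Cyp51 and Fdps without HF sample 2, where 9.25% of all genes were called. In batch 2 (4 members) DESeq2 and limma each called 7 (12.8% and 13.8% of all genes), and the smooth muscle covariate, chosen after seeing the data, left 0. Leaving out a sample gave 0 to 7, the 7 without HFLF sample 1, where 10.3% of all genes were called. Over both batches (5 members, all lower) the replicate block gave 8 (Elovl6 and Me1 higher, Fads2 lower besides the 5). No fold threshold gave 8 (Elovl1 and Elovl6 higher, Stard4 lower besides the 5). These settings called 19.8% and 28.4% of all genes. DESeq2 gave 6 (Msmo1 higher, 19.2% of all genes), no filter 6 (Elovl6 higher, 12.8%) and the covariate 2 (7.84%). Leaving out a sample gave 3 to 8. For HFLF against HF in batch 2 (3 members) DESeq2 called 5 (17.1% of all genes) and the covariate left 1 (6.12%). Leaving out a sample gave 0 to 8 (14.8% of all genes for the 8). Over both batches (1 member) other size factors, DESeq2 and the covariate gave 0, limma and the replicate block 2, no fold threshold 3, and leaving out a sample 0 to 4. Without the filter on low counts 1 was called there, Thrsp in place of Srebf1 (7.01% of all genes). For HFLF against HF in batch 1, leaving out a sample gave 0 in every fit, and HFLF against LF kept 0 under all alternatives. Whether replicate numbers pair the samples was not established. Correlations of deviations between samples with the same number ran from -0.47 to 0.47 in batch 1. In batch 2 they ran from -0.134 to 0.475, and samples with different numbers were not compared. With the replicate block, Srebf1 for HFLF against HF in batch 2 had a log2 fold change of 0.31 and an adjusted p of 0.0501. That fit called Mlxipl and Srebf2 higher and Ebp and Elovl6 lower, where 19.6% of all genes were called. Calls over all genes for HF against LF in batch 2 rose from 1069 to 2080 with the block. The cause of these changes was not tested.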
